A study of Mus musculus with 6 samples.

Results

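The 8 genes described here are Arntl, Clock, Npas2, Nfil3, Cry1, Rora, Csnk1d and Csnk1e. They are activators of the circadian clock, genes known to peak near Arntl in the daily cycle, and the casein kinase genes Csnk1d and Csnk1e, which are neither. They were taken by symbol from the 49652 gene rows of each of 6 bulk RNA-seq libraries of mouse muscle stem cells, and all 8 were found and passed the filter on low counts. They were chosen by their place in the clock with the KO minus WT log2 fold changes of these libraries already known, so that difference is given as a description. Calls and intervals for them come from the fit over all genes and are not read as independent evidence. The KO group (n = 3 libraries) came from Cre-positive mice of the OPA1-Pax7-CreERT2 line and the WT group (n = 3 libraries) from Cre-negative mice of that line. CreERT2 is a recombinase that needs tamoxifen to act, and here Pax7, the transcription factor that marks muscle stem cells, drives it. Mice of both groups were 8 to 10 weeks old, were uninjured, received tamoxifen by gavage on 5 days and were taken 3 days later. Cells were sorted from hindlimb muscle as positive for alpha-7 integrin and VCAM and negative for Sca1, CD45 and CD31, and RNA was extracted from them fresh. Cre and the loss of Opa1 therefore cannot be told apart. The labels do not give the hour of collection or the number of mice behind a library, so the phase of the daily cycle and the genotype cannot be told apart either.

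In the mammalian clock ARNTL (also called BMAL1) pairs with CLOCK, or with its close relative NPAS2, and the pair binds E-box sequences to switch on Per, Cry, Nr1d1, Nr1d2, Dbp and other genes. PER and CRY proteins then block the pair, and casein kinase 1 delta and epsilon, made from Csnk1d and Csnk1e, phosphorylate PER and so set its lifetime. In a further loop ROR proteins, RORA among them, activate and the REV-ERB proteins made from Nr1d1 and Nr1d2 repress Arntl, Clock, Npas2, Nfil3 and Cry1 through shared ROR elements. NFIL3 represses the D-box genes that DBP, TEF and HLF activate. In tissues of mice kept in light and dark, transcripts of Arntl and Npas2 stand high when those of Nr1d1 and Dbp stand low, and skeletal muscle and its stem cells have such a clock.

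Elements of this kind near the start sites of members are shown because they are the sites named in that loop. RefSeq promoter windows of 250 bases before and 50 bases after a start site (GRCm38.p6) were matched for 7 of the 8 members. Capitals mark the letters TAGGTNA in Arntl, TAGGTCA (read on the opposite strand) in Nfil3, and the E-box CACGTG with the related CACGTT (read on the opposite strand) in Cry1.
Arntl, chr7:113207492-113207521, plus strand: attggtcggaaagTAGGTTAgtggtgcgac
Arntl, chr7:113207528-113207557, plus strand: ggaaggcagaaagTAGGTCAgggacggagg
Nfil3, chr13:52981040-52981069, minus strand: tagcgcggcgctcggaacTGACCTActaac
Cry1, chr10:85185090-85185149, minus strand: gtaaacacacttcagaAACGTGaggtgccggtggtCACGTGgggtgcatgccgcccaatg

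Both strands of every window were searched for each motif. Arntl held TAGGTNA at 2 places around the downstream of its 2 RefSeq start sites, and only the second of them reads TAGGTCA. Among all 32851 windows, 8.29% held TAGGTNA and 0.557% held it 2 or more times, while 2.61% held TAGGTCA. These shares overlap, since the looser motif includes the stricter one. Cry1 held CACGTG 60 bases and CACGTT 79 bases before its start site, motifs found in 7.15% and 4.68% of windows. The D-box letters TTANGTAA, present in 2.32% of windows, were in no member's window, and none of the motifs was in the windows of Clock, Npas2, Rora or Csnk1e. A match is a run of letters in a short window and says nothing about binding.

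Libraries held 41410136 to 56606886 reads assigned to genes. Levels are given as CPM, read counts scaled to library size, and differences as log2 fold changes, KO minus WT. Opa1, the targeted gene, stood at 17.5, 34.4 and 27.1 CPM in KO replicates 1 to 3 and at 68.2, 31.4 and 68.8 CPM in WT replicates 1 to 3. The library labelled WT replicate 2 thus lay within the KO range, and the log2 fold change was -1.09 (SE 0.37; exact two-sided permutation p = 0.2 on log2 CPM, where 3 against 3 cannot go below 0.1). Pax7 stood at 325 to 453 CPM in KO and 252 to 398 CPM in WT, and Vcam1 and Itga7 of the gate were present in every library. Of 8 muscle stem cell genes, these among them, 3 had a positive and 5 a negative log2 fold change. Calcr had the lowest, -0.58 (95% interval -1.05 to -0.10), at 165 to 228 CPM in KO and 229 to 349 CPM in WT. It was 1 of the 8 with KO wholly below WT, beside 3.12% of all genes. Ptprc, which encodes CD45, was at or below 0.651 CPM. The genes of the other surface proteins the sort selected against were detected in every library, with Ly6a (Sca1) at 4.86 to 19.2 CPM in KO and 4.62 to 13.6 CPM in WT, and Pecam1 (CD31) at 4.36 to 22.5 CPM in KO and 5.76 to 20.96 CPM in WT. Cycling-cell genes (10 of 10 detected in every library, summed) ranged from 126 to 899 CPM in KO and from 135 to 413 CPM in WT, highest in KO replicate 1 and then in WT replicates 1 and 3. Markers of other cell types were present, with summed CPM of 94.99 to 152 in KO and 106 to 158 in WT for 7 endothelial genes. Most of that sum was Tek in every library, at 77.8 to 98.1 CPM in KO and 97.2 to 109 CPM in WT. Cdh5 of the same list ranged from 2.31 to 5.06 CPM in KO and from 0.0935 (WT replicate 3) to 6.95 CPM in WT. Summed CPM was 713 to 900 in KO and 880 to 1335 in WT for 6 fibro-adipogenic genes (mostly Dpt, 600 to 792 in KO and 763 to 1196 in WT). It was 6.12 to 16.9 in KO and 6.36 to 15.7 in WT for 6 leukocyte genes, of which 3 passed the filter. The sums were 160 to 402 CPM in KO and 145 to 537 CPM in WT for 6 mature fibre genes, 432 to 814 CPM in KO and 544 to 1100 CPM in WT for 6 smooth muscle and pericyte genes (Acta2 among them at 260 to 740 CPM in KO and 313 to 981 CPM in WT), 19.99 to 66.0 CPM in KO and 9.07 to 66.2 CPM in WT for 5 Schwann cell genes, and 33.0 to 257 CPM in KO and 99.1 to 422 CPM in WT for 5 erythroid genes. The part of these cells in the members' values was not tested. Over the 18832 genes tested, edgeR's quasi-likelihood test called 0 at an adjusted p under 0.05, a share of 0%, with 393, or 2.09%, at an unadjusted p under 0.05. DESeq2 called 24 of the 32237 genes with any count, or 0.0744%, and none of the 8 members was among them. Its default filter can leave genes in that base without an adjusted p, so its share and that of edgeR have unlike bases. KO libraries lay wholly below WT libraries for 3.12% of genes and wholly on either side for 6.55%.

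Arntl was the member with the widest gap between the genotypes. It lies on chromosome 7 (113207465 to 113314126, GRCm38, GENCODE M21). Arntl had 1.69, 15.3 and 15.2 CPM (84, 634 and 865 reads) in KO replicates 1 to 3, against 43.8, 20.9 and 66.8 CPM (2479, 1002 and 3574 reads) in WT replicates 1 to 3. Every KO library lay below every WT library, but KO replicates 2 and 3 were close to the library labelled WT replicate 2, while KO replicate 1 was far below all others. Arntl averaged 10.7 ± 7.84 CPM in KO and 43.9 ± 23.0 CPM in WT (SD, n = 3 each), or 24.5% of the WT mean. This is a log2 fold change of -2.03 with an SE of 0.80 and a 95% interval of -3.92 to -0.15. Leaving out KO replicate 1 gave -1.52, leaving out WT replicate 3 gave -1.59, and leaving out the library labelled WT replicate 2 gave -2.37. The highest library was 9.06 times the lowest within KO and 3.20 times within WT. In bulk RNA, fewer cells with a transcript and less of it per cell cannot be told apart.

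Npas2, whose protein can take the place of CLOCK beside ARNTL, followed the same order of groups. The gene is on chromosome 1 (39193731 to 39363236). Npas2 stood at 1.51, 6.24 and 9.27 CPM in KO replicates 1 to 3, against 12.1, 10.6 and 20.8 CPM in WT replicates 1 to 3. KO libraries again lay wholly below WT libraries, and the gap between KO replicate 3 and the library labelled WT replicate 2 was narrow. Means were 5.67 ± 3.91 CPM in KO and 14.5 ± 5.48 CPM in WT (SD, n = 3 each), with a log2 fold change of -1.35 (SE 0.64, 95% interval -2.86 to 0.15). Without KO replicate 1 the value was -0.90, without KO replicate 3 it was -1.91, and without the library labelled WT replicate 2 it was -1.54. Arntl and Npas2 are thus 2 of 8 members with KO wholly below WT, beside 3.12% of all genes, and 0 of 8 had KO wholly above WT, beside 3.43% of all genes. The members were chosen with this contrast known, so nothing is read from these shares.

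Clock, the usual partner of ARNTL, had a smaller log2 fold change than Arntl or Npas2. It lies on chromosome 5 (76209868 to 76304792). Clock had 60.4, 70.9 and 67.1 CPM in KO replicates 1 to 3, against 63.5, 81.0 and 98.6 CPM in WT replicates 1 to 3. WT replicate 1 fell inside the KO range, so the groups overlapped. Its log2 fold change of -0.29 had an SE of 0.19 and a 95% interval of -0.73 to 0.15, and it was -0.44 without WT replicate 1 and -0.13 without WT replicate 3. Per kilobase of exon, the Arntl level was 0.0509, 0.393 and 0.414 of the Clock level in KO replicates 1 to 3, and 1.26, 0.471 and 1.24 of it in WT replicates 1 to 3. The Npas2 level per kilobase was 0.0714, 0.252 and 0.395 of the Clock level in the KO libraries and 0.547, 0.376 and 0.603 in the WT libraries. Arntl was therefore below Clock per kilobase in every KO library and in the library labelled WT replicate 2, and above it in WT replicates 1 and 3.

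**Figure D1:**
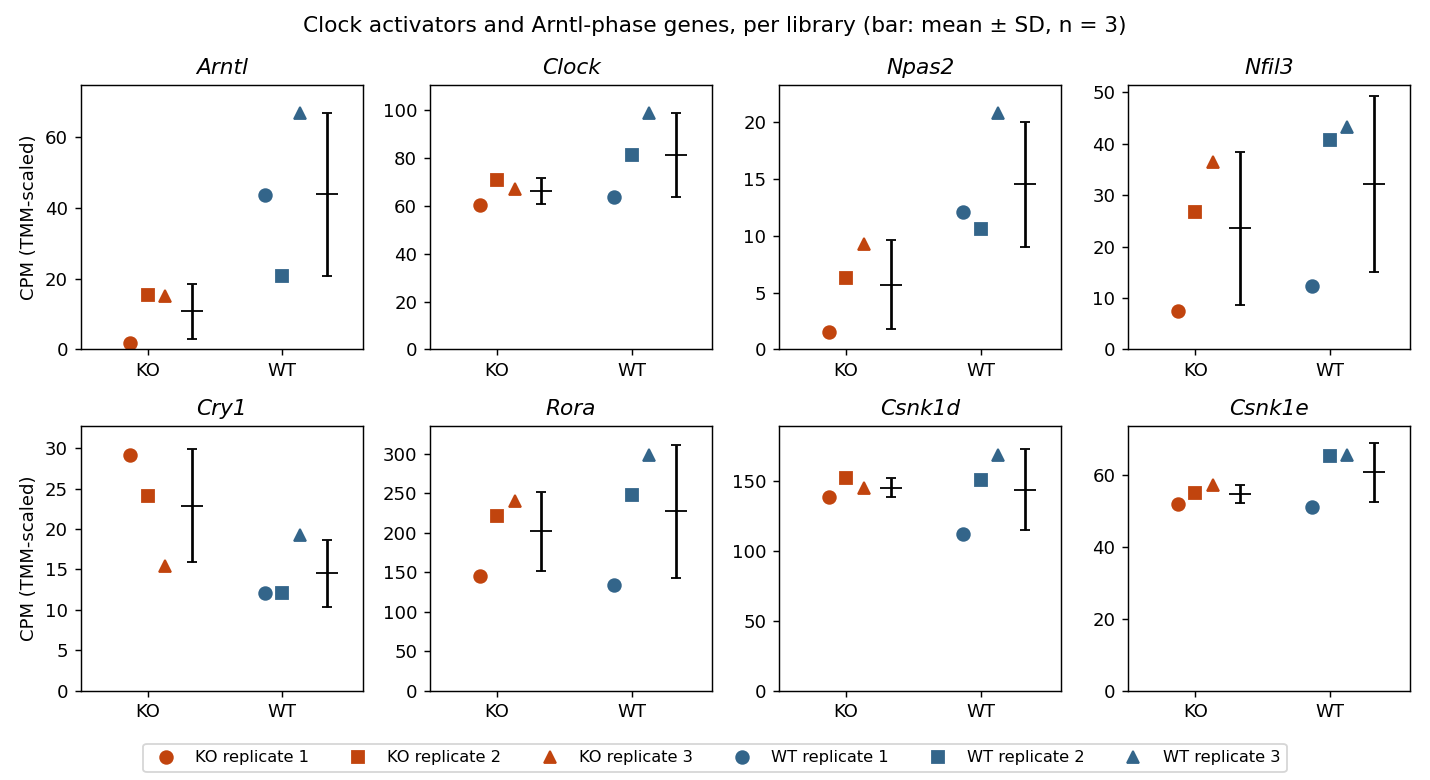
Normalised read counts (CPM, linear axes from 0) of the 8 genes in the 3 KO and 3 WT libraries; symbols are libraries and black bars the mean ± SD (n = 3). Arntl and Npas2 have every KO point below every WT point, and the other 6 genes have groups that overlap.

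Nfil3 and Rora varied more between libraries of one genotype than between genotypes. NFIL3 is a repressor of D-box genes, and its gene is on chromosome 13 (52967209 to 52981073). Nfil3 had 7.39, 26.8 and 36.5 CPM in KO replicates 1 to 3, against 12.4, 40.8 and 43.3 CPM in WT replicates 1 to 3. Replicate 1 of each genotype was low and the groups overlapped, with a log2 fold change of -0.45 (SE 0.65, 95% interval -1.99 to 1.09). Without KO replicate 1 it was -0.02, and without KO replicate 3 it was -0.92.

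Rora encodes the nuclear receptor that activates Arntl, and it lies on chromosome 9 (68653786 to 69388246). Rora had 145, 221 and 240 CPM in KO replicates 1 to 3, against 134, 248 and 299 CPM in WT replicates 1 to 3. As for Nfil3, replicate 1 of each genotype stood below the other libraries, and the WT range enclosed the whole KO range. Rora had a log2 fold change of -0.17 with an SE of 0.32 and a 95% interval of -0.93 to 0.59, and the sign turned to 0.02 without KO replicate 1 and 0.08 without WT replicate 3.

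Cry1 was the one member with a positive log2 fold change beyond 0.5. It encodes a repressor that blocks the CLOCK and ARNTL pair, and its transcript is known to peak later than those of the other E-box genes. It lies on chromosome 10 (85131700 to 85185064). Cry1 had 29.2, 24.0 and 15.5 CPM in KO replicates 1 to 3, against 12.1, 12.1 and 19.3 CPM in WT replicates 1 to 3. KO replicates 1 and 2 were the highest libraries, while KO replicate 3 lay below WT replicate 3. Means were 22.9 ± 6.94 CPM in KO and 14.5 ± 4.13 CPM in WT (SD, n = 3 each), with a log2 fold change of 0.66 (SE 0.32, 95% interval -0.09 to 1.41). It ranged from 0.45 without KO replicate 1 to 0.92 without WT replicate 3. Cry2, the other cryptochrome gene, had 54.1, 94.4 and 67.7 CPM in KO replicates 1 to 3, against 29.1, 57.8 and 32.1 CPM in WT replicates 1 to 3.

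The casein kinase genes were the steadiest members. Csnk1d, on chromosome 11 (120961749 to 120991330), had 138, 152 and 145 CPM in KO replicates 1 to 3, against 112, 150 and 169 CPM in WT replicates 1 to 3. Its log2 fold change was 0.01 (SE 0.17, 95% interval -0.39 to 0.42), and it ranged from -0.14 without WT replicate 1 to 0.15 without WT replicate 3. Csnk1e, on chromosome 15 (79417856 to 79455566), had 51.9, 55.0 and 57.0 CPM in KO replicates 1 to 3, against 51.0, 65.2 and 65.5 CPM in WT replicates 1 to 3. Its log2 fold change was -0.15 (SE 0.15, 95% interval -0.51 to 0.21). For both kinases WT replicate 1 was the lowest and WT replicate 3 the highest of the 6 libraries, so the WT range enclosed the KO range. The coefficient of variation was 4.90% and 4.65% in KO for Csnk1d and Csnk1e, against 20.1% and 13.6% in WT. The kinases are close paralogs, and reads that align to both genes alike would not be counted for either, so their levels are uncertain to that extent.

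Over the 8 members, 6 had a negative and 2 a positive log2 fold change, where 49% of all tested genes were negative. Their median was -0.23, beside 0.01 over all tested genes. With 1 library left out the members' median ranged from -0.44 without WT replicate 1 to -0.07 without KO replicate 1.

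Per kilobase of exon (CPM divided by exon length, RPKM) the 8 genes spanned more than 1 order of magnitude. Csnk1d averaged 28.8 ± 3.74 RPKM over the 6 libraries (SD), above 88.9% of the tested genes. Rora followed at 16.4 ± 4.87 RPKM, Nfil3 at 13.8 ± 7.46 RPKM and Csnk1e at 8.74 ± 0.967 RPKM. Cry1 averaged 5.60 ± 2.06 RPKM and Clock 5.36 ± 1.03 RPKM. Arntl stood at 3.63 ± 3.16 RPKM and Npas2 at 2.11 ± 1.35 RPKM, above 54.1% and 44.3% of the tested genes. The library ranges of every pair of neighbours in this order overlapped. Compared within each library, Csnk1d was above Rora throughout, for example at 22.3 against 10.3 RPKM in WT replicate 1. No other pair of neighbours kept its order in every library. By genotype, Arntl averaged 1.43 ± 1.04 RPKM in KO and 5.83 ± 3.05 RPKM in WT, and Clock 4.82 ± 0.388 RPKM in KO and 5.91 ± 1.28 RPKM in WT (SD, n = 3 each).

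**Figure D2:**
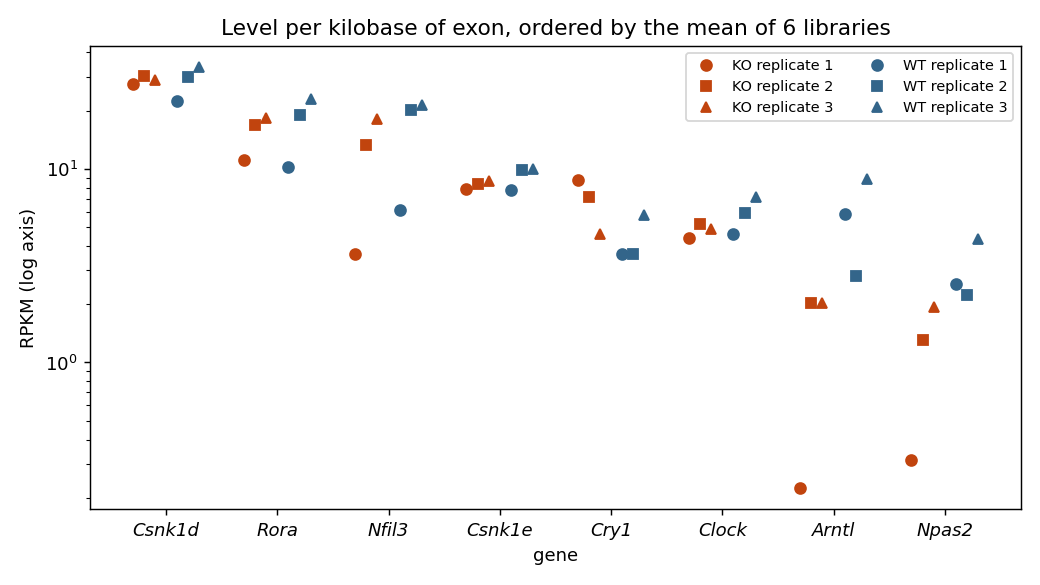
Level per kilobase of exon (RPKM, log axis) of each gene in each library, genes ordered by the mean over 6 libraries and KO points left of WT points. Csnk1d is the highest and Npas2 the lowest on average, and Arntl runs from 0.224 RPKM in KO replicate 1 to 8.88 RPKM in WT replicate 3.

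The order of the libraries divided the members into sets, which are given as a description of 6 points that share genotype, depth and library. WT replicate 3 was the highest library for 7 of 8 members, all but Cry1. KO replicate 1 was the lowest for 4 members (Arntl, Clock, Npas2 and Nfil3) and WT replicate 1 for 3 (Rora, Csnk1d and Csnk1e). Arntl and Npas2 had WT replicate 1 as the second highest library, whereas Clock, Nfil3, Rora, Csnk1d and Csnk1e had it as lowest or next to lowest. On log2 CPM, Pearson's r over the 6 libraries was 0.98 between Arntl and Npas2 (Spearman's rho 0.94) and 0.96 once the mean of each genotype was removed. Without KO replicate 1 and WT replicate 3, the libraries farthest from the Arntl median, r was 0.75 over the remaining 4.

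Clock, Nfil3, Rora, Csnk1d and Csnk1e (a set picked after their values were seen) varied together, with r from 0.68 to 0.94 over their 10 pairs and from 0.74 to 0.98 with genotype means removed. Nfil3 and Rora had r = 0.94 and rho = 0.94. Arntl was less tied to them, with r = 0.65 to Clock, 0.64 to Nfil3, 0.48 to Csnk1e, 0.46 to Rora and 0.09 to Csnk1d. Without KO replicate 1, the r of Arntl was -0.16 with Nfil3 and -0.05 with Rora, so the positive values for Nfil3 and Rora rested on that library. Without it, r was 0.52 with Clock, 0.21 with Csnk1e and -0.06 with Csnk1d. Without both KO replicate 1 and WT replicate 3, r between Arntl and Clock was -0.41. Cry1 had a negative r with 6 of the 7 other members, the lowest being -0.69 with Npas2 and -0.64 with Arntl. With genotype means removed, the r of Cry1 was -0.40 with Npas2, -0.31 with Arntl and -0.29 with Nfil3. With Clock, Rora, Csnk1d and Csnk1e it was then 0.37, 0.01, 0.39 and 0.08. Without KO replicate 1, and with genotype means kept, r between Cry1 and Arntl was -0.13.

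Immediate early genes, known to respond to cell dissociation, also differed between libraries, in an order that matched that of Nfil3 and Rora only in part. All 8 of 8 were detected in every library, with a summed level of 11936, 34946 and 31074 CPM in KO replicates 1 to 3 and 14689, 27504 and 5106 CPM in WT replicates 1 to 3. Replicate 1 of each genotype was thus low for these genes as for Nfil3 and Rora, but WT replicate 3, the highest for Nfil3 and Rora, was the lowest here. All 8 had a positive log2 fold change, where 49% of all tested genes were negative. Their median was 0.77, with a range of 0.61 to 1.19. KO lay wholly above WT for 0 of the 8, beside 3.43% of all genes. The part of the immediate early and cycling-cell genes in the members' values was not tested. Xist, expressed from the inactive X of female cells, stood at 401, 393 and 244 CPM in KO replicates 1 to 3 and at 355, 0.0209 and 508 CPM in WT replicates 1 to 3. Ddx3y, on the Y chromosome, stood at 0.141, 22.9 and 90.2 CPM in KO and 0.0354, 226 and 23.3 CPM in WT, so Y-linked RNA differed within each genotype. KO replicates 2 and 3 and WT replicate 3 held both Xist and Ddx3y. Only the library labelled WT replicate 2 had Ddx3y almost without Xist, and it was the WT library nearest to KO for Opa1, Arntl and Npas2. The part of sex-linked differences in the members' values was not tested either.

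The other 22 clock genes examined were mostly on the other side of 0. They are 9 repressors, 3 D-box output genes, 2 paralogs of the activators, and 8 kinases and ubiquitin ligase parts that act on PER and CRY. All 22 passed the filter, 17 had a positive and 5 a negative log2 fold change, and the median was 0.51. edgeR's quasi-likelihood test called 0 of 22 in either direction, beside 0% of all genes. For 5 of 22 every KO library lay above every WT library, beside 3.43% of all genes. The 12 repressors and D-box output genes were all positive, with medians of 1.08 and 1.17, while the 8 kinases and ligase parts had a median of 0.01. Outside the clock, all 8 immediate early genes (median 0.77) and all 10 cycling-cell genes (median 0.26) were positive too. All 6 mature fibre genes and all 5 erythroid genes were negative. The direction of the repressors and outputs was already known when the lists were drawn up.

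The genes with KO wholly above WT were Ciart, Per2, Per3, Bhlhe41 and Tef. Ciart encodes a repressor of the CLOCK and ARNTL pair and had 8.98, 3.76 and 2.06 CPM in KO replicates 1 to 3, against 1.34, 1.36 and 0.898 CPM in WT replicates 1 to 3. Its order of libraries ran nearly opposite to that of Arntl, with the highest level in KO replicate 1 and the lowest in WT replicate 3. Per3, a period gene, had 240, 273 and 218 CPM in KO replicates 1 to 3, against 59.5, 203 and 46.8 CPM in WT replicates 1 to 3. Per2, which encodes a main partner of CRY proteins, had 61.1, 80.9 and 42.9 CPM in KO replicates 1 to 3, against 11.4, 33.5 and 41.9 CPM in WT replicates 1 to 3. The gap was narrow for both, between KO replicate 3 and the library labelled WT replicate 2 for Per3 and between KO replicate 3 and WT replicate 3 for Per2.

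Bhlhe41, which encodes an E-box repressor, averaged 220 ± 44.0 CPM in KO and 95.3 ± 62.5 CPM in WT, and Tef, a D-box activator gene, 198 ± 23.0 CPM in KO and 87.8 ± 45.4 CPM in WT (SD, n = 3 each). Dbp, a direct E-box target, had 120, 120 and 61.0 CPM in KO replicates 1 to 3, against 67.0, 51.7 and 9.11 CPM in WT replicates 1 to 3. KO replicate 3 fell inside the WT range for Dbp. Nr1d1, which encodes the REV-ERB repressor of Arntl, had 415, 659 and 709 CPM in KO replicates 1 to 3, against 522, 501 and 254 CPM in WT replicates 1 to 3. Here KO replicate 1, the lowest library for Arntl, lay below 2 of the 3 WT libraries, and WT replicate 3, the highest for Arntl, was the lowest. On log2 CPM over the 6 libraries, Arntl had r = -0.95 with Ciart, -0.77 with Tef, -0.73 with Per3, -0.69 with Dbp, -0.52 with Per2 and -0.22 with Nr1d1. With genotype means removed these were -0.89, -0.46, -0.40, -0.43, -0.02 and 0.27, in the same order. Without KO replicate 1 they were -0.83, -0.96, -0.98, -0.78, -0.51 and -0.88, again in that order. For Nr1d1 the value ran from -0.88 to 0.51 as each library was left out, so even its sign rested on single libraries.

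**Figure D3:**
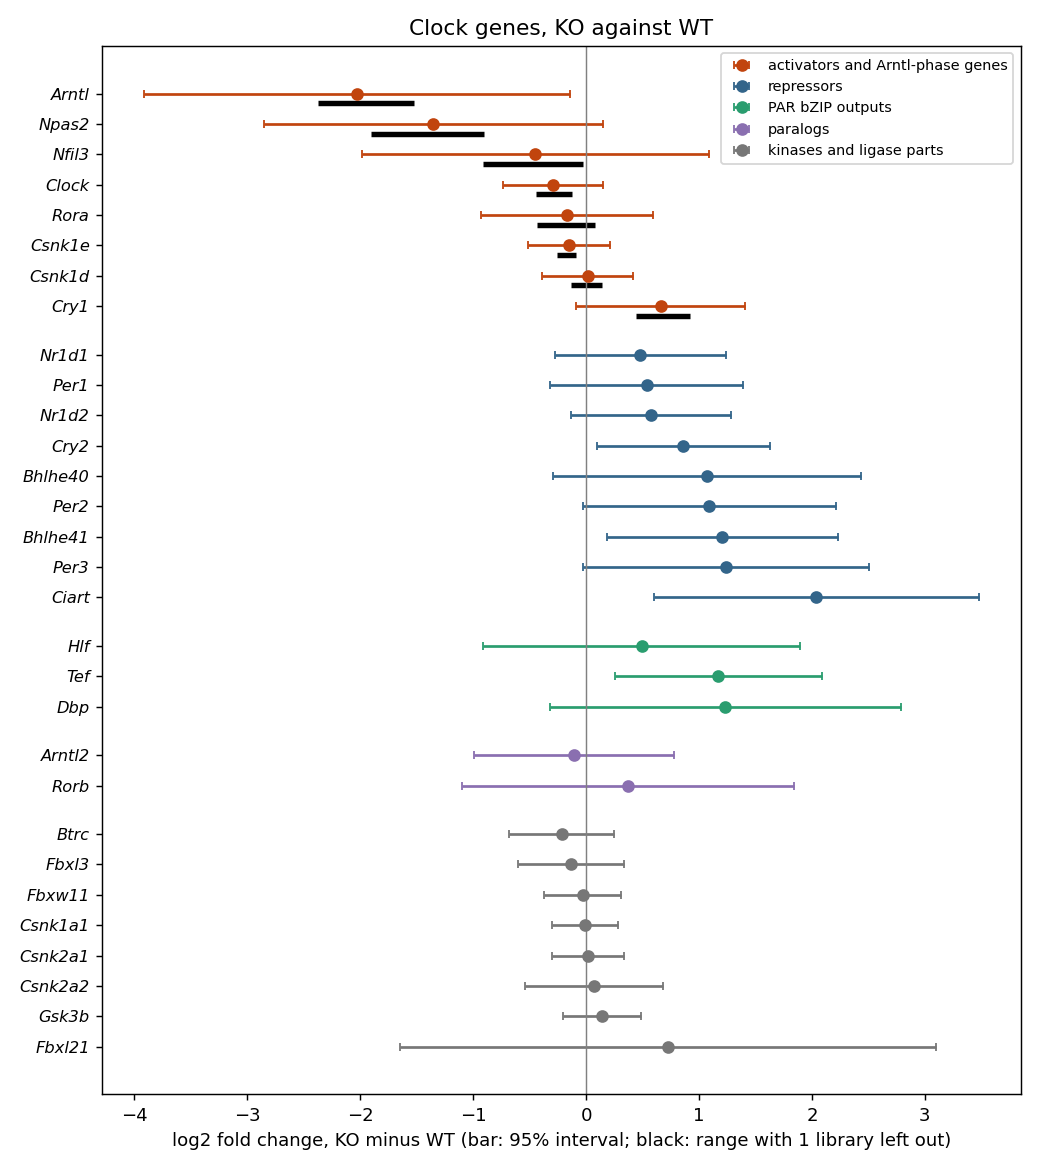
Log2 fold change (KO minus WT) of the 8 genes and the other 22 clock genes with 95% intervals from edgeR; the black bars under the 8 genes give the range with 1 library left out. Arntl and Npas2 stand lowest at -2.03 and -1.35, the repressors and D-box outputs are all above 0, and Csnk1d and Csnk1e lie near 0 at 0.01 and -0.15.

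**Figure D4:**
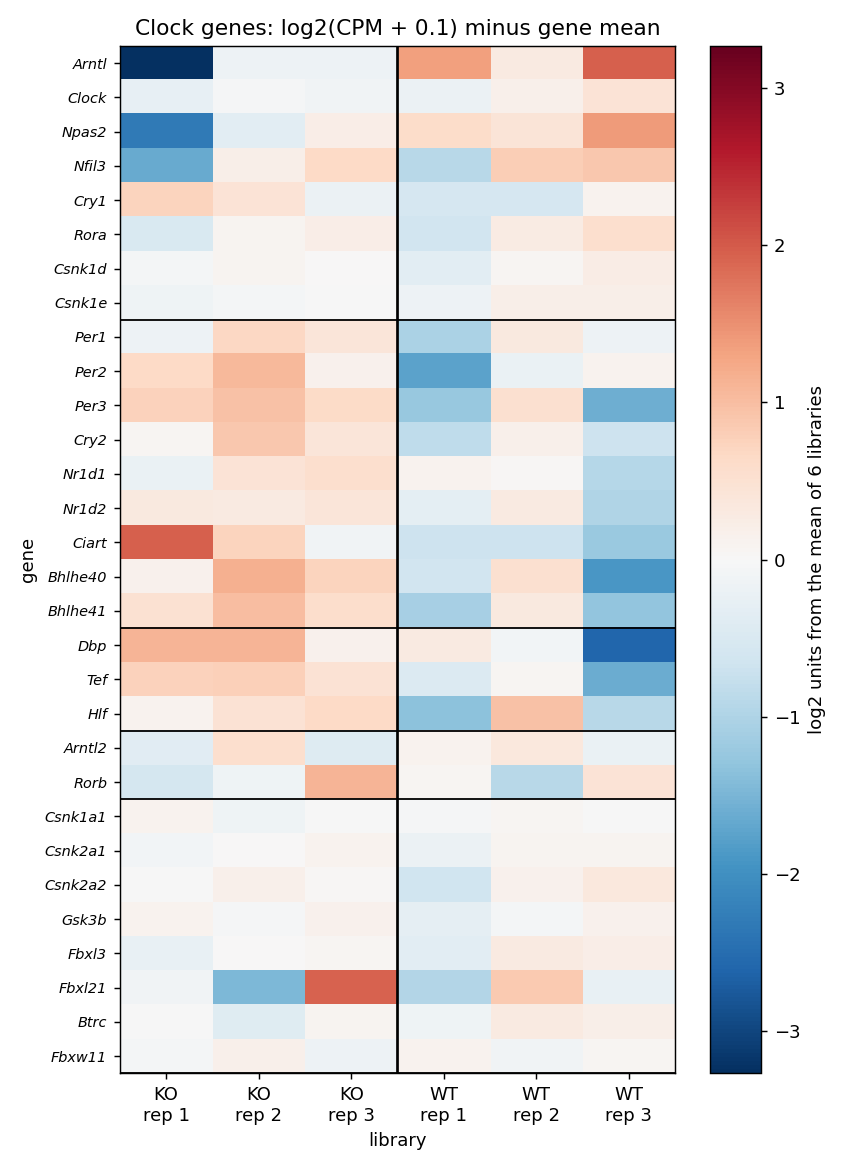
Log2(CPM + 0.1) of the 8 genes and the other 22 clock genes in each library minus the gene's mean over 6 libraries, KO columns left of WT columns and lines between gene groups. Arntl and Npas2 are lowest in KO replicate 1 and highest in WT replicate 3, where Dbp, Tef, Bhlhe40 and Ciart are lowest. Not all repressors and outputs follow, and Per2 and Cry2 are lowest in WT replicate 1.

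Genes whose library pattern was most like that of Arntl were ranked by Pearson's r on log2 CPM over the 6 libraries, among the 12611 other genes that passed the filter and averaged 1 or more on that scale. The top 5 were Col5a3 (r = 0.99), Ercc4 (0.98), Isyna1 (0.98), Npas2 (0.98) and Col5a2 (0.97), so Npas2 had rank 4. Col5a3 and Col5a2 encode chains of collagen V, Ercc4 a DNA repair endonuclease subunit and Isyna1 the enzyme that makes inositol phosphate from glucose phosphate. Col5a3 had 39.0, 81.7 and 71.4 CPM in KO replicates 1 to 3, against 103, 91.4 and 123 CPM in WT replicates 1 to 3, the same library order as Arntl (rho = 1). Col5a2 covered a far narrower span, 137 to 162 CPM in KO and 168 to 181 CPM in WT.

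The 5 genes least like Arntl were Hmox2 (r = -0.99), Rlf (-0.97), Tbc1d31 (-0.96), Txndc16 (-0.96) and Plau (-0.96). Hmox2, the constitutive heme oxygenase gene, spanned 48.5 to 53.8 CPM in KO and 46.2 to 48.8 CPM in WT. Ciart had rank 9 from this end. Of the 12611 genes, 60 reached an r of 0.9 or more and 29 an r of -0.9 or less. Without KO replicate 1 and WT replicate 3, r over the remaining 4 libraries ranged from 0.75 to 0.91 for the 5 most like and from -0.99 to -0.77 for the 5 least like.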

How the data were processed

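Each deposited table gives unnormalized counts for 1 library. The submitters' processing notes name GRCm38, HTSeq 0.6.1p2, STAR 2.6.0c, DESeq2, edgeR, cutadapt 2.5 and Trim Galore 0.5.0. Neither annotation release nor strand setting is given in the sources used here. Antisense genes share at most 4.05% of a member's exon bases. The 5 summary rows per file were left out. They hold 11.2% to 17.0% of reads without a feature and 14.8% to 24.6% aligned more than once.

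Names, positions and exon lengths came from GENCODE M21 (49399 of 49652 rows matched). KO was compared with WT in R 4.3.3 by the quasi-likelihood test of edgeR 4.0.16, robust, with TMM scaling, the package's filter on low counts (18832 genes) and Benjamini-Hochberg adjustment over them. The prior count was 0.125 for fold changes, and SE is the size of the fold change over the square root of F. CPM are counts scaled to TMM library sizes, and RPKM are these per kilobase of exon union. Log2 CPM used a prior count of 2. The labels do not say how libraries relate to animals. Xist and Y-linked transcripts differ between libraries of each genotype, so these do not all hold the same animals, and p-values measure the spread between these libraries. DESeq2 1.42.0, its size factors, no filter, a replicate block and leaving out each library were tried.

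Members, lists and the rule for named genes were chosen with earlier results of these data known. The rule names the members, Opa1, Dbp, Nr1d1, Per2, other clock genes whose groups do not overlap, the 5 genes most and least like Arntl, and leading markers. Cry2, Bhlhe40, Ddx3y, Xist, Calcr, Cdh5, Dcn, Col1a1, Lum and Pdgfra were added after their values were seen. One gene of the clock lists is not reported here.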

Additional observations from a re-analysis of the deposited data

How the results depend on the processing

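By edgeR 0 genes were called with the TMM scaling or DESeq2's size factors, with no filter, with the replicate block and with each library left out. DESeq2 called 24, 14 higher and 10 lower in KO. What makes the tools differ was not tested. At an unadjusted p under 0.05 there were 393 genes, 864 with no filter, 855 by DESeq2, 515 with the replicate block, and 324 to 818 with a library left out. The direction was kept under every alternative for Arntl, Npas2, Clock, Nfil3, Csnk1e, Cry1 and Opa1. With a library left out, log2 fold changes ranged from -2.37 to -1.52 for Arntl, -1.91 to -0.90 for Npas2, -0.44 to -0.13 for Clock, -0.92 to -0.02 for Nfil3, -0.26 to -0.09 for Csnk1e, 0.45 to 0.92 for Cry1 and -1.38 to -0.87 for Opa1. Rora (-0.44 to 0.08) and Csnk1d (-0.14 to 0.15) turned sign, and Csnk1d also with no filter (-0.01). The members' median ranged from -0.44 to -0.07.

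Same-numbered libraries deviated from their group means with r of 0.25, 0.11 and -0.07, and differently numbered ones with r of -0.285 to 0.207. These ranges overlap, so the numbers are not taken to pair the libraries, though a pairing is not excluded. With the replicate block the log2 fold change was -2.34 (SE 0.90) for Arntl, -1.61 (SE 0.53) for Npas2 and 0.65 (SE 0.37) for Cry1. It was -0.53 for Nfil3, with an SE of 0.18 in place of 0.65, and -0.13 for Rora, with an SE of 0.12 in place of 0.32. With the block 0 members were called. With 84 to 3574 Arntl reads per library, the spread between libraries limits precision, not counting error.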
